A study of Mus musculus with 6 samples.

Results

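The Arp2/3 complex is the machine that starts a new actin filament from the side of an existing one. It was followed here through 9 mouse subunit genes, Actr2, Actr3, Arpc1a, Arpc1b, Arpc2, Arpc3, Arpc4, Arpc5 and Arpc5l. All 9 were found by symbol among the 25631 genes of the deposited oocyte table. The subunits were taken by name, but the complex was looked at because Arpc3 stood out in the comparison of aminophylline with control. The differences between groups are therefore given for the subunits as a description, without a p-value. Counts of subunits past the limits used for all genes are also given, and nothing is read from them.

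RNA had been sequenced in 6 libraries of oocytes from naturally aged ICR mice of 14 months, punctured from large antral follicles after an injection of eCG, a gonadotropin. The 3 control libraries came from untreated mice that drank water without drug. The 3 aminophylline libraries came from mice given 4.0 mM aminophylline in the drinking water for 1 week, followed by water only for 3 weeks. Aminophylline is a theophylline salt that inhibits phosphodiesterases, the enzymes that break down cAMP, and the comparison asks how the treatment of aged females altered the oocyte transcriptome. The numbers of mice and oocytes behind a library are not given in the sources used here.

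In an assembled complex, Arp2 and Arp3, the products of Actr2 and Actr3, resemble actin and form the first subunits of the new branch. ARPC2 and ARPC4 make the scaffold that lies on the mother filament, ARPC3 sits beside Arp3, ARPC1 receives part of the signal from activators, and ARPC5 holds Arp2 in place. Mammals have alternative genes for ARPC1 (Arpc1a and Arpc1b) and for ARPC5 (Arpc5 and Arpc5l). In mouse oocytes the complex is known for the actin network that keeps the meiotic spindle at the cortex and for polar body extrusion.

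Arpc3 and Arpc1a were the 2 subunits whose libraries did not overlap between groups, upward as for 7.51% of all genes tested. For Arpc1a the step was only from 16.0 to 16.3 FPKM. The 250 bases before the annotated start sites of both are shown (RefSeq, GRCm38.p6, plus strand, written 5′ to 3′), a choice made from the same contrast. Arpc3 lies on chromosome 5 at chr5:122391878-122406181 and its upstream sequence at chr5:122391628-122391877. Arpc1a lies on the same chromosome at chr5:145083869-145108756 and its upstream sequence at chr5:145083619-145083868. Capitals mark TGACG or its reverse complement CGTCA, the core of the cAMP response element.
Arpc3: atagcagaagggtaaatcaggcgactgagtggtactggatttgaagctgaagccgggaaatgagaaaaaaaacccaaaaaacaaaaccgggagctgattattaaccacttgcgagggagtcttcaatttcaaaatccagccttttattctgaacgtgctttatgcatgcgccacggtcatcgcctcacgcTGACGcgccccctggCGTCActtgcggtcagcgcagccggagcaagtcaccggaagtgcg
Arpc1a: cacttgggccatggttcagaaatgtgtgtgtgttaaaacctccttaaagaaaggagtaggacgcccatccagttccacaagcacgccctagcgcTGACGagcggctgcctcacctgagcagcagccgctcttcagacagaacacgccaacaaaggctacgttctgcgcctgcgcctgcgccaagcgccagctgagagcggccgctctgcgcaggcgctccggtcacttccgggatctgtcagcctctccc

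The core TGACG was searched on both strands in the upstream sequences of the 8 subunits with an entry, and Arpc5l had none. It occurred 2 times before Arpc3, 1 time before Arpc1a and 0 times before the other 6, and 17.8% of 32851 upstream sequences of the same length held it. The full element TGACGTCA was in none of the 8, against 1.5% of all. The GC box GGGCGG showed a different distribution, with 7 matches before Arpc1b, 3 before Arpc5, 2 each before Arpc2 and Actr2, 1 before Actr3 and 0 before Arpc3, Arpc1a and Arpc4, against 32.7% of all sequences with at least 1. The sequences with a GC box had a GC content of 64.0% to 74.4% and those without 51.2% to 60.8%. The median over all sequences was 52.4%. None of the 8 had the TATA box TATAAA or TAATTG, the element read by the oocyte factor NOBOX. These matches describe letters in a window and say nothing about binding, and a link to the treatment was not tested.

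All 9 subunit mRNAs were present in all 6 libraries. Levels are given as FPKM, fragments per kilobase of transcript scaled to the reads of the library, which allows genes to be compared per length. Over the 6 libraries Arpc5l was the most abundant subunit and Arpc4 the least abundant, in first and ninth place in every library. Ranked among the 10340 genes tested, their mean FPKM stood at percentile 95.5 and 47.6. The order by mean FPKM was Arpc5l, Arpc3, Arpc1b, Arpc2, Actr2, Actr3, Arpc1a, Arpc5 and Arpc4. Only the last neighbours had separate ranges, since the lowest Arpc5 value (10.02 FPKM) exceeded the highest Arpc4 value (7.66 FPKM). All other neighbours overlapped, although Arpc5l exceeded Arpc3, Arpc2 exceeded Actr2 and Actr2 exceeded Actr3 within each of the 6 libraries.

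**Figure D1:**
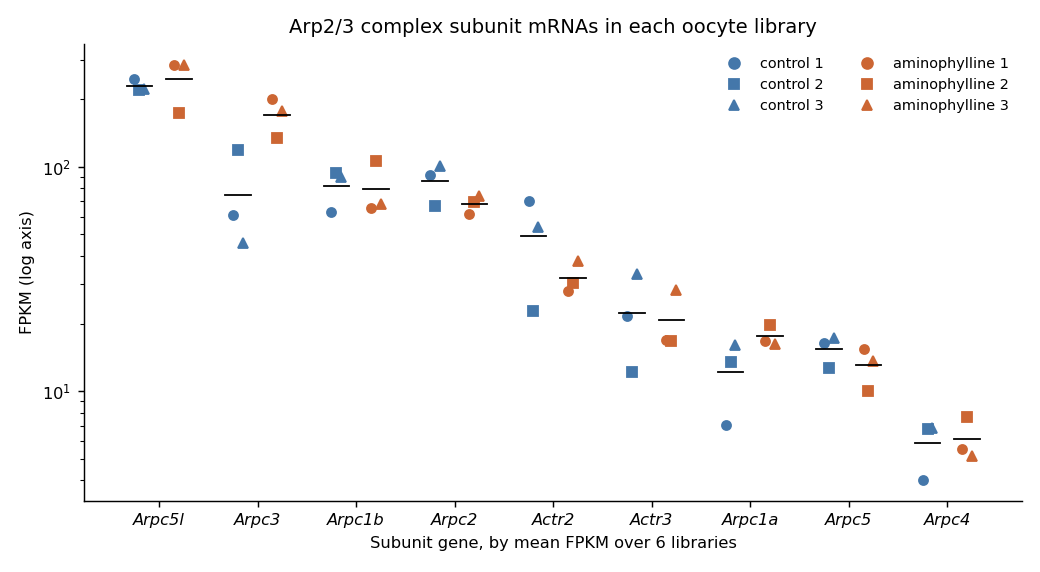
FPKM of the 9 Arp2/3 subunit genes (log axis) in the 3 control (blue) and 3 aminophylline (orange) oocyte libraries, with the replicate number given by the symbol and the group mean by the black line. Arpc3 lay at 45.9 to 118 FPKM in control and at 134 to 201 FPKM with aminophylline, and control 2 was its highest control library.

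Arpc3 encodes the small subunit ARPC3 (NCBI gene 56378). Its level was 61.1, 118 and 45.9 FPKM in control 1, 2 and 3 and 201, 134 and 178 FPKM in aminophylline 1, 2 and 3. The groups did not overlap, but control 2 came close to aminophylline 2, while controls 1 and 3 were far lower. The reads behind these values were 1853, 1503 and 1315 in control and 5105, 2982 and 4895 with aminophylline, so counting error was small beside the spread between libraries. The mean was 75.1 ± 38.1 FPKM (SD, n = 3) in control and 171 ± 34.1 FPKM (SD, n = 3) with aminophylline. The ratio of means was 2.27 and the difference was 1.27 ± 0.30 (SE) on the log2(FPKM + 1) scale, the third highest of the 10340 genes tested. The control libraries varied more than the treated ones, with a coefficient of variation of 50.8% against 20.0%.

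Because these are bulk libraries, more oocytes with the mRNA and more mRNA per oocyte cannot be told apart. Leaving out control 2 moved the Arpc3 difference to 1.65 and leaving out control 3 moved it to 0.98 (log2), the 2 extremes among the 6 libraries left out in turn. Over 12 other settings with all 6 libraries it ranged from 1.14 to 1.36.

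The actin-like subunits were lower than control on average or near 0 in difference. Actr2 (NCBI gene 66713) measured 70.4, 22.8 and 54.1 FPKM in control and 27.8, 30.2 and 38.1 FPKM with aminophylline. Control 2 was the lowest of all 6 libraries, below every treated one, whereas controls 1 and 3 were above every treated one, so the groups overlapped. The difference was −0.47 ± 0.34 (SE, log2). It rested strongly on single control libraries, being −0.94 without control 2 and −0.14 without control 1. Actr3 (NCBI gene 74117) measured 21.7, 12.1 and 33.3 FPKM in control and 17.0, 16.7 and 28.3 FPKM with aminophylline, a difference of −0.04 ± 0.33 (SE, log2). Control 2 was again the lowest library. Actr2 exceeded Actr3 by 1.62 to 3.25 times in control and by 1.35 to 1.80 times with aminophylline, and these ranges overlapped.

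The scaffold subunits did not move together. Arpc2 (NCBI gene 76709) measured 91.9, 66.7 and 100.5 FPKM in control and 61.5, 69.3 and 74.0 FPKM with aminophylline. Controls 1 and 3 lay above all treated libraries and control 2 lay among them, which gave a difference of −0.32 ± 0.19 (SE, log2). Arpc4 (NCBI gene 68089) was low throughout, at 4.02, 6.77 and 6.83 FPKM in control and 5.51, 7.66 and 5.17 FPKM with aminophylline. Its difference was 0.06 ± 0.25 (SE, log2) and turned negative under quantile normalization (−0.02) and median centring (−0.02). It rested on 217 to 493 reads per library. Arpc4 shares exon sequence on the same strand with Ttll3, which was listed at 0.0101 FPKM or less.

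The alternative ARPC1 genes differed in level and in direction. Arpc1b (NCBI gene 11867), the more abundant form, measured 62.8, 94.2 and 89.7 FPKM in control and 65.2, 106 and 68.5 FPKM with aminophylline. The libraries of both groups were interleaved, with a difference of −0.06 ± 0.23 (SE, log2). Arpc1a (NCBI gene 56443) measured 7.04, 13.5 and 16.0 FPKM in control and 16.7, 19.7 and 16.3 FPKM with aminophylline, a difference of 0.56 ± 0.27 (SE, log2). Its groups were separated only by the step from control 3 to aminophylline 3, and the difference fell to 0.23 without control 1. As a share of the summed Arpc1a and Arpc1b FPKM, Arpc1a made up 10.1%, 12.5% and 15.2% in control and 20.3%, 15.7% and 19.2% with aminophylline. These shares averaged 12.6% ± 2.54 and 18.4% ± 2.45 (SD, n = 3) and were separate between groups by the narrow step between control 3 and aminophylline 2.

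The ARPC5 genes had differences near 0 (Arpc5l) and below 0 (Arpc5). Arpc5l (NCBI gene 74192) measured 247, 220 and 222 FPKM in control and 285, 174 and 283 FPKM with aminophylline. Aminophylline 2 was the lowest library and aminophylline 1 and 3 the highest, so the difference of 0.07 ± 0.20 (SE, log2) hid a wide treated group, and it turned to −0.02 under quantile normalization, to −0.19 with library weights and to between −0.05 and 0.31 with each library left out. Arpc5 (NCBI gene 67771) measured 16.5, 12.7 and 17.3 FPKM in control and 15.5, 10.02 and 13.6 FPKM with aminophylline, a difference of −0.24 ± 0.22 (SE, log2). Arpc5 made up 5.44% to 7.23% of the pair in control and 4.61% to 5.44% with aminophylline, 2 ranges that met at 5.44%, so that Arpc5l supplied most ARPC5 transcripts in every library.

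**Figure D2:**
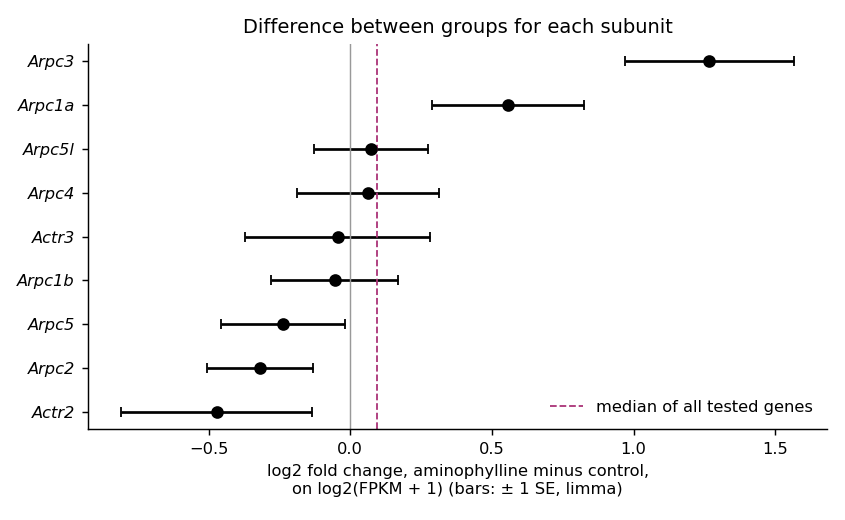
Difference between groups for each subunit, aminophylline minus control on the log2(FPKM + 1) scale, with bars of 1 SE from the limma fit over all tested genes and a dashed line at the median of all tested genes (0.10). Arpc3 stood at 1.27 and Arpc1a at 0.56, and the other 7 lay between −0.47 and 0.07.

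Set against all genes, a difference past an unadjusted limma p of 0.05 with a fold over 1.5 was seen for 1 of the 9 subunits in the upward direction (Arpc3) and for 0 in the downward direction. Over all 10340 genes tested, 2.08% passed these limits upward and 1.13% downward. Groups that did not overlap were seen upward for 2 of the 9 subunits and downward for 0, against 7.51% and 4.96% of all genes. Since the complex was picked from this contrast, nothing is read from these counts. The median difference was −0.04 over the 9 subunits, −0.05 over the 8 without Arpc3 and 0.10 over all genes tested. With the Benjamini-Hochberg adjustment over all genes limma called 0 genes in either direction, and 456 higher and 294 lower passed an unadjusted p of 0.05. With replicate number as a block it called 35 genes higher (0.338%) and 12 lower (0.116%) at an adjusted p of 0.05, and 2.59% higher and 1.23% lower past the unadjusted p and the fold.

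The comparison of Arpc3 with its partners within each library removes differences in scaling between libraries. The log2 ratio of Arpc3 to the geometric mean of the other 8 subunits was 0.95, 2.05 and 0.19 in control and 2.71, 2.08 and 2.39 with aminophylline. Control 2 reached almost the level of aminophylline 2, and the other controls lay well below. The mean log2 ratio was 1.06 ± 0.93 (SD, n = 3) in control and 2.39 ± 0.32 (SD, n = 3) with aminophylline. Over the same libraries the geometric mean of the other 8 was 33.5 ± 6.04 FPKM and 32.0 ± 1.74 FPKM, a difference smaller than the spread between libraries.

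By FPKM among the subunit mRNAs, Arpc3 ranked higher with aminophylline than in controls 1 and 3, but not higher than in control 2. It was in the fifth place of 9 in controls 1 and 3 and in the second in control 2 and in all 3 aminophylline libraries. Its share of the summed subunit FPKM was 10.5%, 20.8% and 7.84% in control and 28.9%, 23.6% and 25.2% with aminophylline. The sum of the other 8 was 449 to 540 FPKM in control and 434 to 527 FPKM with aminophylline, and these ranges overlapped.

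Single partners gave different degrees of separation. Per unit of Arpc5l, Arpc3 was 0.248, 0.537 and 0.207 in control and 0.705, 0.767 and 0.628 with aminophylline, with the lowest treated ratio above the highest control ratio. Per unit of Arpc2, Arpc3 was 0.666, 1.77 and 0.457 in control and 3.26, 1.93 and 2.40 with aminophylline. Per unit of Arpc1b, the highest control ratio (1.25, control 2) and the lowest treated ratio (1.26, aminophylline 2) were almost the same. Per unit of Actr2, the groups overlapped, since control 2 had a ratio of 5.19 and aminophylline 2 and 3 had 4.43 and 4.66.

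**Figure D3:**
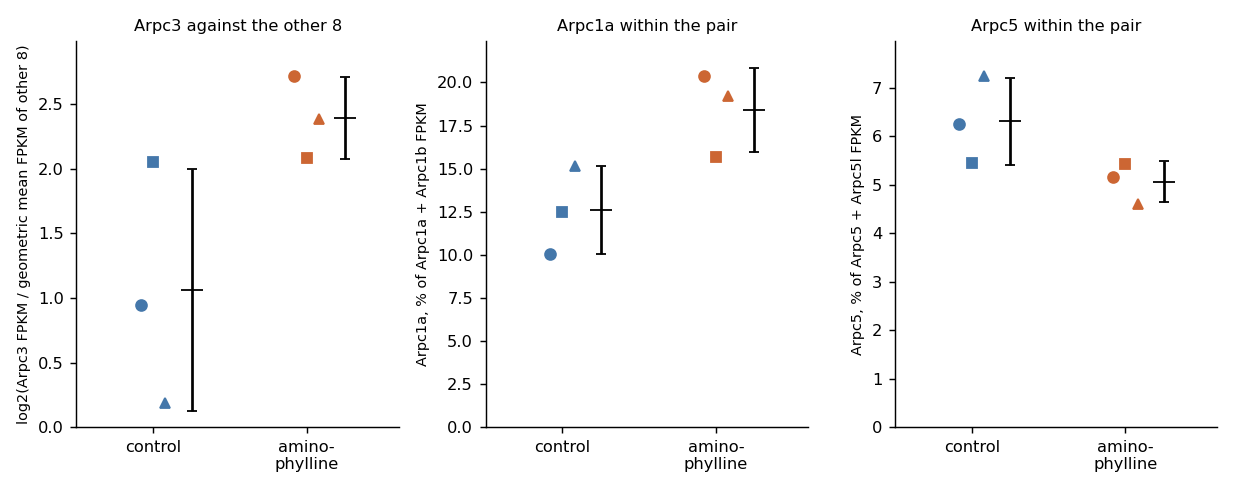
Left, log2 ratio of Arpc3 FPKM to the geometric mean FPKM of the other 8 subunits; middle, Arpc1a as a percent of Arpc1a plus Arpc1b; right, Arpc5 as a percent of Arpc5 plus Arpc5l, in control (blue) and aminophylline (orange) libraries, with circles, squares and triangles for replicates 1, 2 and 3 and black bars for the mean ± SD (n = 3). The Arpc3 ratio of control 2 (2.05) lay just under that of aminophylline 2 (2.08).

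For several subunits control 2 differed from controls 1 and 3, and at the 2 ends of the subunit lengths this went with transcript length. Over all genes tested the 3 controls differed from each other. Their correlations of log2(FPKM + 1) were 0.9765 (controls 1 and 2), 0.9768 (1 and 3) and 0.9697 (2 and 3). Control 2 reached 0.99 with aminophylline 1 and 0.9843 with aminophylline 2, and control 3 reached 0.9847 with aminophylline 3. Control 2 held 14112341 reads, against 24773273 to 33641283 in the other 5 libraries. The length behind each FPKM value ran from 901 bases for Arpc3, the shortest subunit transcript, to 3684 bases for Actr2, the longest. On the log2(FPKM + 1) scale, control 2 minus the mean of controls 1 and 3 was 1.14 for Arpc3, 0.32 for Arpc1b and 0.31 for Arpc1a and Arpc4. It was −0.09 for Arpc5l, −0.39 for Arpc5, −0.52 for Arpc2, −1.09 for Actr3 and −1.40 for Actr2. The shortest and the longest subunit thus marked the 2 ends of this within-control difference. Between them it did not follow length, with Arpc2 (1646 bases) at −0.52 and Arpc4 (2271 bases) at 0.31.

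Over all genes tested, the medians of this difference fell with length. The median of control 2 minus the other controls was 0.33 for 785 genes of up to 700 bases and 0.27 for the 899 genes of 700 to 1100 bases, the class of Arpc3. It fell to 0.04, −0.18 and −0.28 in the classes of 1100 to 2000, 2000 to 4000 and over 4000 bases. Between the groups, the median difference of the class of Arpc3 was 0.14, with 74.5% of genes positive, against 0.10 and 64.8% over all genes. Arpc3 had the highest difference of the 899 genes in its class, which its choice from this contrast made likely in advance. It also ranked 14 of the 899 in control 2 minus the other controls. After a loess correction of each library for length, a setting chosen after the data were seen, the Arpc3 difference was 1.14 and the Actr2 difference −0.55. This correction also recentres each library, so the part of length in the change cannot be told apart. The part of transcript length or of library integrity in the subunit values was not tested beyond this.

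**Figure D4:**
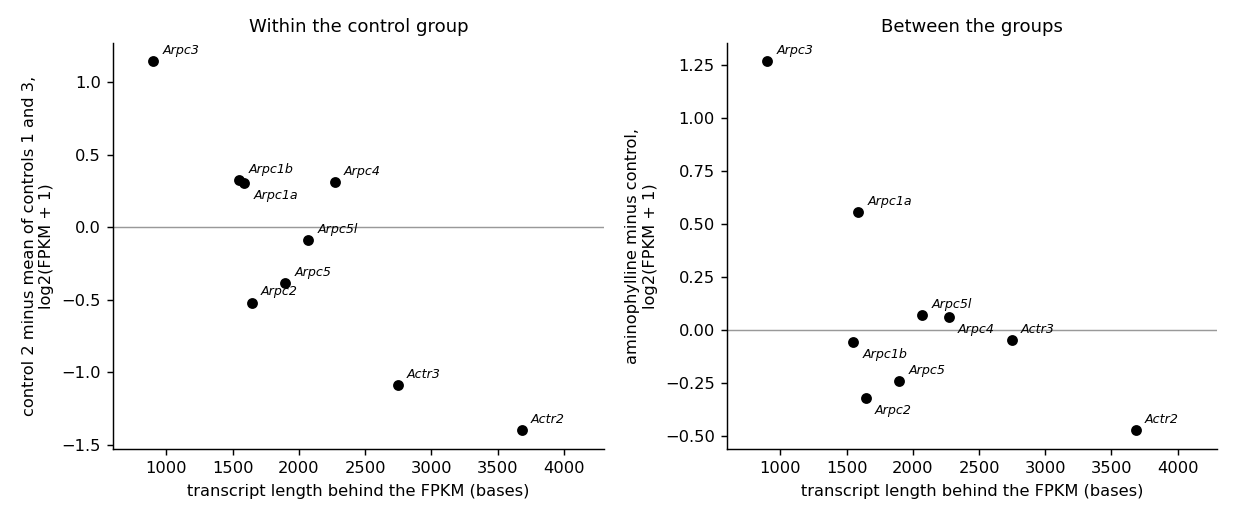
Length behind the FPKM of each subunit (bases) against control 2 minus the mean of controls 1 and 3 (left) and against aminophylline minus control (right), both on the log2(FPKM + 1) scale. Arpc3, at 901 bases, was highest in both panels (1.14 and 1.27), and Actr2, at 3684 bases, was lowest in both (−1.40 and −0.47).

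Across the 6 libraries the subunits did not vary as a unit. These correlations of log2(FPKM + 1) describe 6 points that share the 2 groups, the depth of control 2 and its length gradient. Arpc3 ran against Arpc2 (Pearson's r = −0.92) and Actr2 (r = −0.75), while Actr2 ran with Arpc2 (r = 0.90) and with Actr3 (r = 0.72). Arpc1b ran with Arpc4 (r = 0.93) and against Arpc5l (r = −0.89).

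Among 4272 genes with a mean of at least 10 FPKM, the 5 with the pattern most like that of Arpc3 over the 6 libraries were Pih1d1 (r = 0.98), Rpl36, Gm5, Mrpl13 and Rplp2 (each r = 0.98). Rpl36 and Rplp2 encode ribosomal proteins and Mrpl13 a protein of the mitochondrial ribosome. Of the 5, 4 had a transcript length of 457 to 786 bases, and Pih1d1 had 1711 bases. Their values spanned less than those of Arpc3, as for Rpl36 with 75.7, 98.3 and 66.3 FPKM in control and 128, 121 and 127 FPKM with aminophylline. The 5 genes most like the mean of the other 8 subunits were Tsnax, Atg12, Clpx, Hspd1 and St13 (each r = 0.98), with lengths of 2363 to 3124 bases. In total 27 genes had an r over 0.95 with Arpc3 and 29 with the mean of the other 8, again over only 6 libraries.

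The subunits could be told apart from each other and from copies in the genome to different degrees. Arpc3 and Arpc5l had no other annotated transcript with at least 90% identity over at least 100 bases. The coding sequences of Arpc1a and Arpc1b were 73.9% identical, those of Arpc5 and Arpc5l 71.3% and those of Actr2 and Actr3 59.7%. The longest stretches shared by the paired genes are shown, since a longer read within the coding sequences differs between the paired genes.
Arpc1a and Arpc1b: AACCATGAGGTGCACATCTAT
Arpc5 and Arpc5l: CTCCAGTGGCATGAAAAGGCC

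Both stretches are 21 bases long. Processed pseudogenes with at least 90% identity exist for Actr2, Actr3, Arpc1a, Arpc1b, Arpc2 and Arpc5, so their values are less certain than that of Arpc3. Of these copies only Gm5637, a copy of Arpc1b with 96.5% identity over 1131 bases, is listed in the table, at 0.638 to 1.38 FPKM. The longest match, to a copy of Actr3 with 98.8% identity over 2348 bases, is not listed. The level of Actr3 and the ratio of Actr2 to Actr3 carry this limit. Arpc1a also overlaps the GENCODE model of Kpna7 on the opposite strand, and Kpna7 measured 180 to 351 FPKM. Without knowledge of strand in the counting, reads in that overlap cannot be assigned.

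In growing oocytes many mRNAs are stored with a short poly(A) tail, which is lengthened later through a cytoplasmic polyadenylation element, TTTTAT or TTTTAAT, near the polyadenylation hexamer. In the annotated transcripts a hexamer (AATAAA or ATTAAA) was found at the end of 8 of the 9 subunits, and only Actr2 had the element within the 100 bases before it. Its site is shown with the element in capitals, on the transcript strand.
Actr2: atatacttctTTTTAATtaagaaaataaat

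The element began 13 bases before the hexamer. Among 6309 tested genes with a hexamer, 19.7% had it. Arpc3, with a 3′ untranslated region of 248 bases, had the hexamer ATTAAA and no element in the window.

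Beyond the 9 subunit genes, 82 genes that activate, restrain or work beside the complex were followed in 9 lists. These were not used to choose the subunits, but the lists were drawn up with earlier results of these data known. Of the 80 listed in the table, 51 passed the expression filter. In this fit 0 of the 51 passed an unadjusted p of 0.05 with a fold over 1.5, 1 was higher and 2 were lower at an unadjusted p of 0.05 alone, and 0 passed the adjusted threshold (limma, Benjamini-Hochberg). Over all genes 4.41% were higher and 2.84% lower at that unadjusted p. The median difference of the 51 was 0.06 (log2), against 0.10 over all genes. With replicate number as a block, 1 gene (Diaph1) passed both limits, 5 were higher and 4 lower at an unadjusted p of 0.05, and 0 passed after adjustment. Under the block 9.88% of all genes were higher and 4.3% lower.

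Activators of the complex are the nucleation promoting factors. Of the 10 listed, 4 were tested (Wasl, Wasf1, Wasf2 and Whamm), with a median difference of 0.47, and 1 passed the unadjusted threshold. Whamm, which activates the complex on internal membranes, measured 6.86, 7.23 and 11.4 FPKM in control and 11.2, 12.5 and 14.9 FPKM with aminophylline. Control 3 reached into the treated range. The difference was 0.57 ± 0.23 (SE, log2; limma unadjusted p = 0.0320, adjusted p = 0.682). The unadjusted p was 0.0086 with replicate number as a block. It was 0.0729 after rescaling to equal sums and 0.0721 without variance moderation, and leaving out control 1, control 2, aminophylline 2 or aminophylline 3 also took it over 0.05. Wasl, the gene for N-WASP and the factor with the highest mean, measured 6.53 to 16.6 FPKM in control and 10.2 to 18.8 FPKM with aminophylline.

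The complexes and adaptors that turn these factors on gave 0 genes past the unadjusted threshold without the block. In the WAVE regulatory complex 5 of 8 genes were tested, with a median of 0.20, and in the WASH complex 3 of 4, with a median of 0.24. Brk1, the smallest WAVE complex subunit, measured 105, 125 and 123 FPKM in control and 144, 134 and 133 FPKM with aminophylline, without overlap. Its difference was small at 0.22 ± 0.15 (SE, log2; limma unadjusted p = 0.175, adjusted p = 0.728). The WAVE adaptor Abi1 had the largest difference of that list, 0.25 ± 0.31 (SE, log2), and the WASH subunits Washc2 and Washc3 had 0.31 ± 0.28 and 0.24 ± 0.24. Among WASP partners and GTPases, where 4 of 9 were tested, the median was −0.16. The GTPase Rac1, the most abundant, measured 152 to 159 FPKM in control and 122 to 167 FPKM with aminophylline. The adaptor Nck1 was at −0.42 ± 0.19 (SE, log2; limma unadjusted p = 0.0511, adjusted p = 0.685). With replicate number as a block its unadjusted p was 0.0332 (limma adjusted p = 0.303), and it was under 0.05 in 10 of the 18 alternatives.

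Genes that restrain the complex or take its branches apart also gave 0 past the unadjusted threshold. Of 10 listed, 5 were tested, and their median was 0.13. Coro1b, the coronin with the highest mean, was at 0.13 ± 0.20 and Coro1c at 0.38 ± 0.29 (SE, log2). Of 16 genes of capping and turnover 14 were tested, with a median of −0.15, and 1 was lower. Dstn, which encodes destrin, an actin-severing relative of cofilin, measured 60.2, 50.6 and 60.7 FPKM in control and 44.0, 39.5 and 38.4 FPKM with aminophylline. All treated libraries were below all controls. The difference was −0.48 ± 0.16 (SE, log2; limma unadjusted p = 0.0135, adjusted p = 0.676), and the unadjusted p was 0.0510 without aminophylline 2 and 0.0614 without aminophylline 3.

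Actins themselves differed little. Actg1 measured 26.4 to 45.5 FPKM in control and 35.6 to 39.3 FPKM with aminophylline, a difference of 0.01 ± 0.22 (SE, log2), and Actg2 was at 0.33 ± 0.23. Among the other actin-related proteins listed, Actl6a, a subunit of chromatin remodellers, was lower. It measured 66.5, 67.8 and 81.2 FPKM in control and 49.9, 52.4 and 49.8 FPKM with aminophylline, with no overlap. The difference was −0.49 ± 0.16 (SE, log2; limma unadjusted p = 0.0103, adjusted p = 0.664), and the unadjusted p stayed under 0.05 in the 18 alternatives run. The remaining 6 tested genes of that list did not pass. Among them was Actr3b, at 0.345 to 1.44 FPKM, whose coding sequence was 76.3% identical to that of Actr3.

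Other nucleators, which start unbranched filaments, gave 0 of 6 tested genes past the unadjusted threshold, with a median of 0.17. The formin Diaph1 measured 1.995, 2.45 and 4.50 FPKM in control and 3.73, 5.28 and 5.53 FPKM with aminophylline. Its difference of 0.59 ± 0.27 (SE, log2) had a limma unadjusted p of 0.0512, and of 0.0104 (adjusted p = 0.216) with replicate number as a block. Spire1, the most abundant nucleator of the list, was at −0.26 ± 0.23 (SE, log2).

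**Figure D5:**
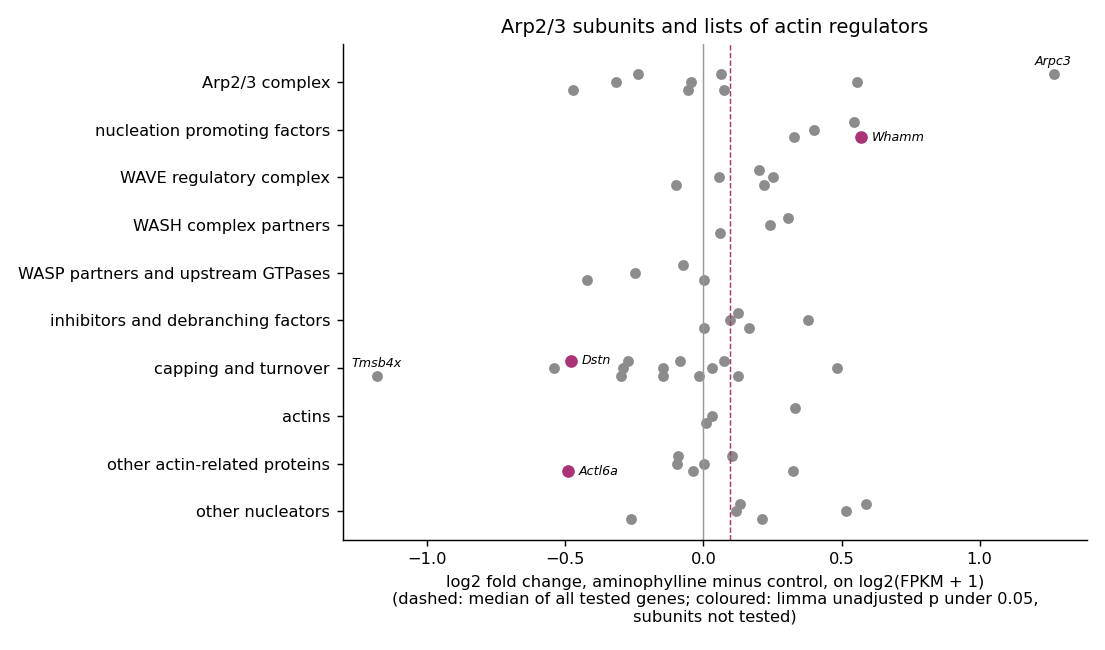
Difference between groups (aminophylline minus control, log2(FPKM + 1) scale) of the 9 Arp2/3 subunits and of the 51 tested genes in 9 lists, 1 point per gene, with the dashed line at the median of all tested genes and colour for a limma unadjusted p under 0.05, which was not used for the subunits. Whamm (0.57), Dstn (−0.48) and Actl6a (−0.49) are coloured, and Tmsb4x lies farthest left at −1.18.

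Tmsb4x and Tmsb10 encode thymosins, which bind actin monomers. Tmsb10 was the most abundant gene of the lists, at 398 to 549 FPKM in control and 485 to 540 FPKM with aminophylline. Tmsb4x measured 144, 3.29 and 0.033 FPKM in control and 1.76, 3.03 and 3.94 FPKM with aminophylline, so a single control library carried its level. Its difference was −1.18 ± 1.30 (SE, log2) with all libraries and 0.85 without control 1.

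The oocyte identity of the libraries was clear from their markers. The 14 oocyte genes, led by Zp3, Gdf9 and Oosp1, summed to 9610 to 14743 FPKM, with control 1 the lowest, and the 13 listed granulosa and cumulus genes summed to 16.4 to 24.6 FPKM. Cyp19a1 (7.37 to 15.7 FPKM) and Nr5a2 (4.43 to 8.53 FPKM) gave most of that sum, and Amh, Ptx3 and Foxl2 were at or near 0. In control 1 the 13 listed macrophage and leukocyte genes summed to 270 FPKM, against 82.0 to 103 FPKM in the other 5 libraries, where C1qb alone gave most of the sum. Of the 13, 11 were highest in control 1, and Adgre1, C1qc and Cd52 were at 0 in the other 5. Lyz2 was 66.4 FPKM in control 1 and at most 0.57 FPKM elsewhere.

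Tmsb4x moved with these genes. For the subunits control 1 was the lowest library of Arpc1a, Arpc1b and Arpc4 and the highest of Actr2. Without control 1 the difference was 1.18 for Arpc3, 0.23 for Arpc1a and −0.14 for Actr2 (log2). The part of other cells in the control 1 values was not tested further, and fewer cells of a type and less RNA per cell cannot be told apart.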

How the data were processed

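The authors sequenced oocyte RNA (VAHTS Universal V6 libraries) and deposited FPKM per gene for 6 libraries, 3 per group. The submitters' processing notes name GRCm38 and mm10, and the aligner and counter are not given in the sources used here. Groups and replicate numbers came from the labels. Nothing says that replicates came from separate mice, so the p-values may measure only technical spread. The subunits and the lists were chosen with earlier results of these data known.

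Whole reads were recovered from the deposited FPKM for 100% of 22583 genes above 0 in at least 2 libraries (tolerance 1e-06 reads). Library totals were 14112341 to 33641283 reads, 99.573% to 99.631% on listed genes. Counting error was not the limit for any subunit.

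The 10340 of 25631 genes that reached 1 FPKM in 3 or more of the 6 libraries were fitted on log2(FPKM + 1) with limma 3.58.1 in R 4.3.3, with a moderated variance and a trend on mean expression, two-sided, and Benjamini-Hochberg adjustment over all tested genes. A fold change on this scale understates that of low genes. The fit was tested on simulated data. Genes named were the 9 subunits, list genes with an unadjusted p under 0.05, the gene with the highest mean FPKM and that with the largest difference in each list, the 5 genes most correlated with Arpc3 and the 5 most correlated with the mean of the other 8, and markers of a list that moved with a subunit. Genes outside this rule (Gm5637, Ttll3, Kpna7, Wasf1, Wasf2, Capza2, Actr3b, Zp3, Gdf9, Oosp1, Amh, Ptx3, Foxl2, Cyp19a1 and Nr5a2) were named after their values were seen. Alternatives were another pseudocount (0.1), filter, scaling, variance model, library weights, voom on recovered reads, the replicate number as a block, each library left out, and a loess correction for length added after the data were seen.

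Replicate numbers 1 to 3 stand in the labels of both groups. The correlation of deviations from the group means between same-numbered libraries was 0.138, 0.140 and 0.552, each over 0.1, although no source used here says that they share mice. All errors, p-values and calls are from the fit without pairing, except where the replicate block is named. Control 2 also correlated with aminophylline 1 (0.423).

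Sequences and positions came from RefSeq and GENCODE vM21 on GRCm38.p6. Copies were searched with BLAST+ 2.17.0.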

Additional observations from a re-analysis of the deposited data

How the results depend on the processing

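Calls at an unadjusted p under 0.05 with a fold over 1.5 numbered 332 over all genes (64.8% higher) and 0 among the 51 list genes. Over all genes the count was 200 with a mean FPKM of at least 5, 158 without variance moderation and 975 with library weights, and 183 to 1006 with each library left out (183 without control 1, 763 without control 2, 1006 without control 3, 594 without aminophylline 1). The share of higher calls was 49.3% after rescaling to equal sums, 36.9% after quantile normalization, 36.8% after median centring and 38.4% after the loess correction for length. Among the lists the count was 2 with a pseudocount of 0.1 (Whamm and Diaph1), 1 with median centring (Capza2), 1 with the replicate block (Diaph1), 7 with library weights and 3 with voom on recovered reads, and 0 to 9 with each library left out (1 without control 2, 9 without control 3, 6 without aminophylline 1). The cause of these changes was not tested. List genes at an unadjusted p under 0.05 numbered 3, against 9 with the replicate block, 6 with voom and 12 with library weights. The replicate block called 395 genes, 47 of them at an adjusted p under 0.05, where the fit without it called 0, and among the subunits it left the count past both limits at 1. The median difference of the 9 subunits was −0.18 to −0.04 with all libraries and −0.14 to 0.07 with each left out, so its sign is not settled. Arpc3 and Arpc1a stayed positive and Actr2, Arpc2 and Arpc5 negative in all 18 alternatives, whereas Arpc1b, Arpc4, Arpc5l and Actr3 changed sign in 3 to 5 of them. With 3 libraries per group, and control 2 shallower and different by transcript length, the size of the Arpc3 difference is not well known. It lay between 0.98 and 1.65 (log2) over these alternatives, which reuse the same libraries and do not measure its error. The SE was 0.30 in the main fit. Arpc3 was also picked for its rise, so the difference may be overstated.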
